A study of Triticum aestivum with 4 samples.

Results

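The comparison described here asks whether heating a wheat plant's parent leaves a difference in the flag leaf of its offspring once the offspring is itself heated. PH held leaf RNA from heated progeny of heat-primed plants, and NH held leaf RNA from heated progeny of unprimed plants. These are 2 of the 4 arrays of the series, chosen by their labels. PC and NC, from progeny of primed and of unprimed plants that were not heated, are given beside them as the same contrast without heat. All plants were pot-grown bread wheat (*Triticum aestivum*) of the commercial winter cultivar Yangmai 16. Parents of PH and PC plants were primed by day at 32 °C and by night at 28 °C, for 2 days at the 7-leaf and again at the 9-leaf stage, and once more after flowering, for 7 days starting at day 10, at 34/30 °C. From day 10 after anthesis the progeny were kept for 6 days in chambers set to 34/30 °C (day/night) for PH and NH and to 26/22 °C for PC and NC. The labels do not say how many plants went into a sample.

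Flag leaves supply much of the sugar that fills a wheat grain. Heat after flowering is known to shorten leaf life and to lower carbon fixation, in which the Calvin cycle uses the energy captured by the photosystems to build triose phosphates for sucrose and starch. Priming means an earlier exposure to a stress, and priming of parents is studied for effects that pass through the seed. Each group is 1 array, so the values carry no replicate error and the pair allows no test across samples. A difference counts here when the intensities differ by 2-fold or more, which is 1 on the log2 scale. Intensities below 12.3, the median of all values without control probe sets, were raised to that floor first. In whole leaves, fewer cells of a kind and less RNA per cell cannot be told apart.

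PH leaves carried more transcript of 2 Calvin cycle enzymes than NH leaves, and less of 2 enzymes of methyl group turnover and of 2 seed-type proteins. Phosphoribulokinase and fructose bisphosphatase were each more than 2-fold higher in PH, and S-adenosylhomocysteine hydrolase and caffeic acid O-methyltransferase each more than 2-fold lower. Of 31462 probe sets above the floor on PH or NH, 1187 passed 2-fold, which is 3.77%. In PH, 715 of them were higher (2.27%) and 472 lower (1.50%). Of the 572 measured genes with a symbol, 41 passed (7.17%), 11 higher (1.92%) and 30 lower (5.24%). The same contrast without heat, PC against NC, passed at 0.761% of probe sets, 0.342% higher and 0.420% lower in PC. Of genes with a symbol 2.66% passed without heat, 0.831% higher and 1.83% lower in PC.

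**Figure D1:**
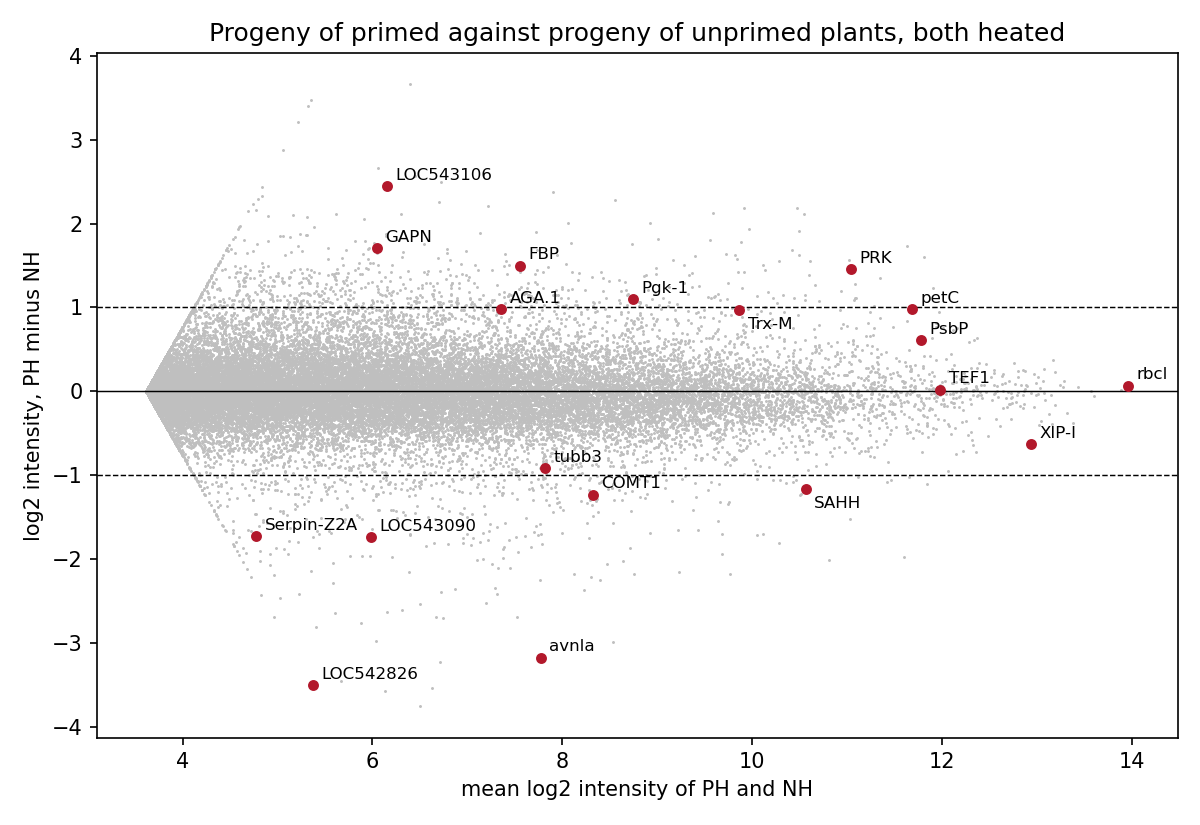
Log2 intensity of PH minus NH against the mean log2 intensity of both arrays, for 31462 probe sets (grey) and selected genes (red); dashed lines mark 2-fold. Points fan out from the floor at the left, LOC543106 stands at 2.44 and avnla at -3.18, and the brightest gene, rbcl, lies at 0.07.

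The spread of this pair was wider than that of the unheated pair at every signal level. Over the 31462 probe sets, the log2 difference had a standard deviation of 0.42 for PH minus NH and 0.27 for PC minus NC. The central 98% of PC minus NC ran from -0.66 to 0.73, and 8.61% of the PH minus NH values lay outside it. The median PH minus NH difference was -0.003. Between log2 intensities of 5 and 8 about the same share passed in each step, 4.69% to 4.72%. Of 532 probe sets above a log2 intensity of 11, 3.57% passed for PH against NH and 2.26% for PC against NC. At 3-fold the balance of directions turned, with 100 probe sets higher in PH (0.318%) and 133 lower (0.423%), 0.741% in all. For PC against NC the 3-fold share was 0.182%, of which 0.0219% were higher and 0.160% lower in PC. Of genes with a symbol, 2 were 3-fold higher in PH (0.350%) and 9 lower (1.57%), against 0 higher and 4 lower (0.664%) in PC, which is also the 0.664% that passed in either direction.

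**Figure D2:**
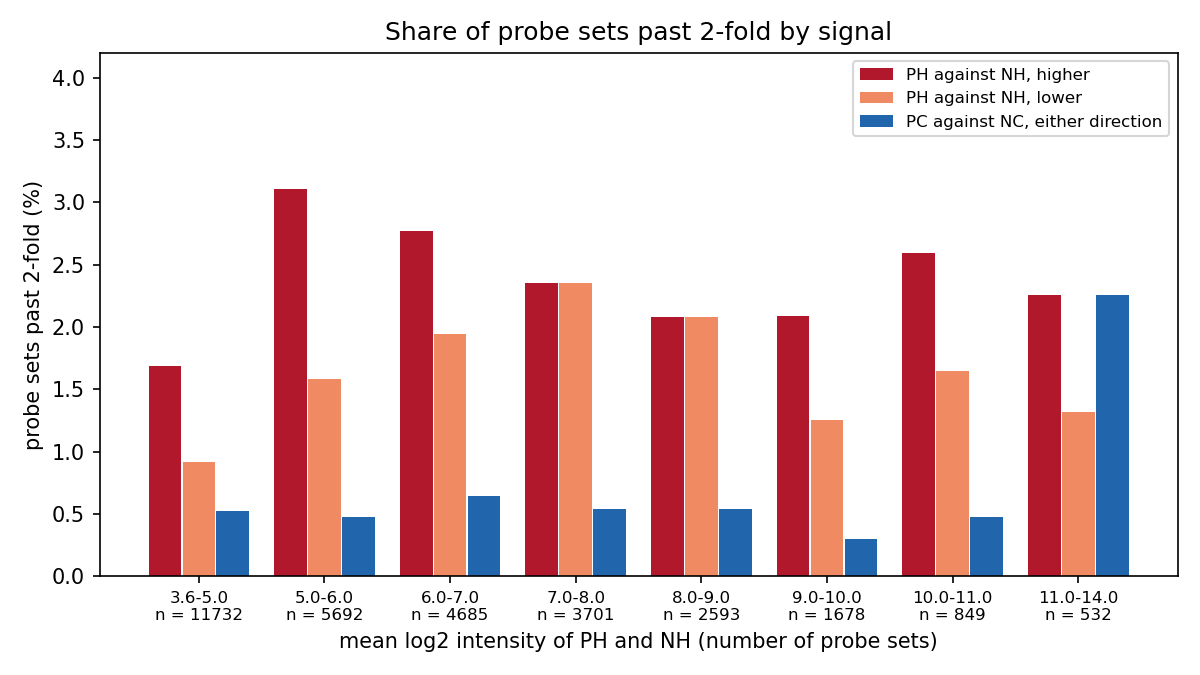
Share of probe sets past 2-fold in steps of mean log2 intensity of PH and NH. Bars show PH against NH higher (red), PH against NH lower (orange) and PC against NC in either direction (blue). The blue bars stay at or below 0.640% up to a log2 intensity of 11 and reach 2.26% above it.

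The RNAs added as controls also differed between the arrays of this pair. The 36 poly-A control probe sets had a median PH over NH ratio of 0.557, with a range from 0.458 to 0.725, and a PC over NC ratio of 1.30. The 27 hybridization controls, added later in the procedure, had medians of 0.857 and 1.02. The 18S ribosomal RNA control read 7258 on PH and 7391 on NH. The ratio of 3' to 5' signal, a gauge of RNA integrity, was 0.992 on PH and 0.929 on NH for ubiquitin. For the sucrose synthase control it was 55.1 on PH and 60.2 on NH, so the order of the arrays differed between these controls. The part of these differences in the results was not tested.

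The brightest gene on each array belonged to photosynthesis. The gene named rbcl, for the large subunit of Rubisco, the enzyme that fixes carbon dioxide, gave the highest value of each array, at 16320.0 on PH, 15575 on NH, 16875 on PC and 16201 on NC. Of its 28 probe sets, 10 were measured on PH or NH, and their log2 differences ran from -0.12 to 0.51 with 0 past 2-fold.

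Among the genes of the Calvin cycle list, PRK and FBP were more than 2-fold higher in PH. PRK, phosphoribulokinase, which renews the carbon dioxide acceptor, read 3493 on PH and 1275 on NH, against 6877 on PC and 5887 on NC. It was 2.74-fold higher in PH, and 151 of the 31462 probe sets had a difference at least as high. FBP, fructose bisphosphatase, read 316 on PH and 112 on NH, against 1557 on PC and 1692 on NC. Its level was 2.83-fold higher in PH and remained far below that of both unheated arrays. Trx-M, thioredoxin m, a plastid protein that switches enzymes on through their disulfides, read 1300.1 on PH and 666 on NH, against 3899 on PC and 3791 on NC. At 0.96 on the log2 scale it fell just short of 2-fold. Of the 4 genes of this group, 2 were 2-fold higher and 0 lower, where 1.92% of all 572 measured genes were higher and 5.24% lower. The group's median was 1.21, against -0.06 over all 572. The same 4 genes had a median of 0.05 for PC minus NC and 0 past 2-fold.

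Genes of the light reactions were all above 0 without reaching 2-fold, where 250 of all 572 measured genes lay above 0. petC encodes the Rieske iron-sulfur protein of the cytochrome b6/f complex, which passes electrons between the photosystems. It read 4623 on PH and 2339 on NH, against 8082 on PC and 7853 on NC, a log2 difference of 0.98. PsbP, which helps photosystem II split water, read 4329.8 on PH and 2832 on NH, against 5727 on PC and 5590.3 on NC. Its log2 difference was 0.61, and 0.79 on its other probe set. PsbO, which works beside it, read 4793 on PH and 3674 on NH, against 6165 on PC and 5853 on NC, with a log2 difference of 0.38. Of these 3 genes 0 passed 2-fold, and their median was 0.61. On PC minus NC the 3 lay between 0.03 and 0.07.

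Both measured genes of the glycolysis and triose phosphate list were more than 2-fold higher in PH, where 1.92% of all 572 measured genes were. GAPN, which oxidizes glyceraldehyde-3-phosphate in the cytosol without forming a second phosphate bond and yields NADPH, read 119.8 on PH and 36.6 on NH, against 1598 on PC and 1690.2 on NC. The difference was 3.27-fold, reached or exceeded by 67 of the 31462 probe sets. Pgk-1, phosphoglycerate kinase, read 627 on PH and 292 on NH, against 3085 on PC and 3247 on NC, a 2.14-fold difference. PFK, phosphofructokinase, lay below the floor on all arrays. The same 2 genes had PC minus NC values of -0.08 and -0.07.

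In starch and fructan metabolism the members went apart. AGA.1, a subunit of ADP-glucose pyrophosphorylase, which makes the glucose donor for starch, read 230.4 on PH and 117 on NH, against 1128 on PC and 966 on NC, a log2 difference of 0.98, and 0.48 on its other probe set. AGP-S, the small subunit, read 458 on PH and 425 on NH, a difference of 0.11. 1-FEH, a fructan exohydrolase that breaks down the leaf's storage fructans, read 518 on PH and 689 on NH, against 353 on PC and 214 on NC. Its difference was -0.41 with heat and 0.72 without. 6-FEH, another fructan exohydrolase, lay near the floor at 15.4 on PH and 16.8 on NH. Of the 4 measured genes 0 passed 2-fold, and the waxy gene GBSS-I and the beta-amylase BMY1 were below the floor on PH and NH.

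The other 7 genes 2-fold higher in PH carry a locus symbol alone. LOC543106 read 166 on PH and 30.5 on NH, against 1144 on PC and 1091 on NC, and was 5.44-fold higher, a difference reached by 9 probe sets in all, itself included. LOC543355 read 96.2 on PH and 36.4 on NH, against 2887 on PC and 2648 on NC. Its second probe set read 61.7 on PH and 12.5 on NH, so both measured it as higher in PH, by 2.64-fold and 4.92-fold. LOC780585 read 48.4 on PH and 18.9 on NH, and LOC780623, the brightest of the 7, read 1112 on PH and 515 on NH. The remaining 3, LOC543256, LOC542855 and LOC606310, were between 2.06-fold and 2.22-fold higher.

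**Figure D3:**
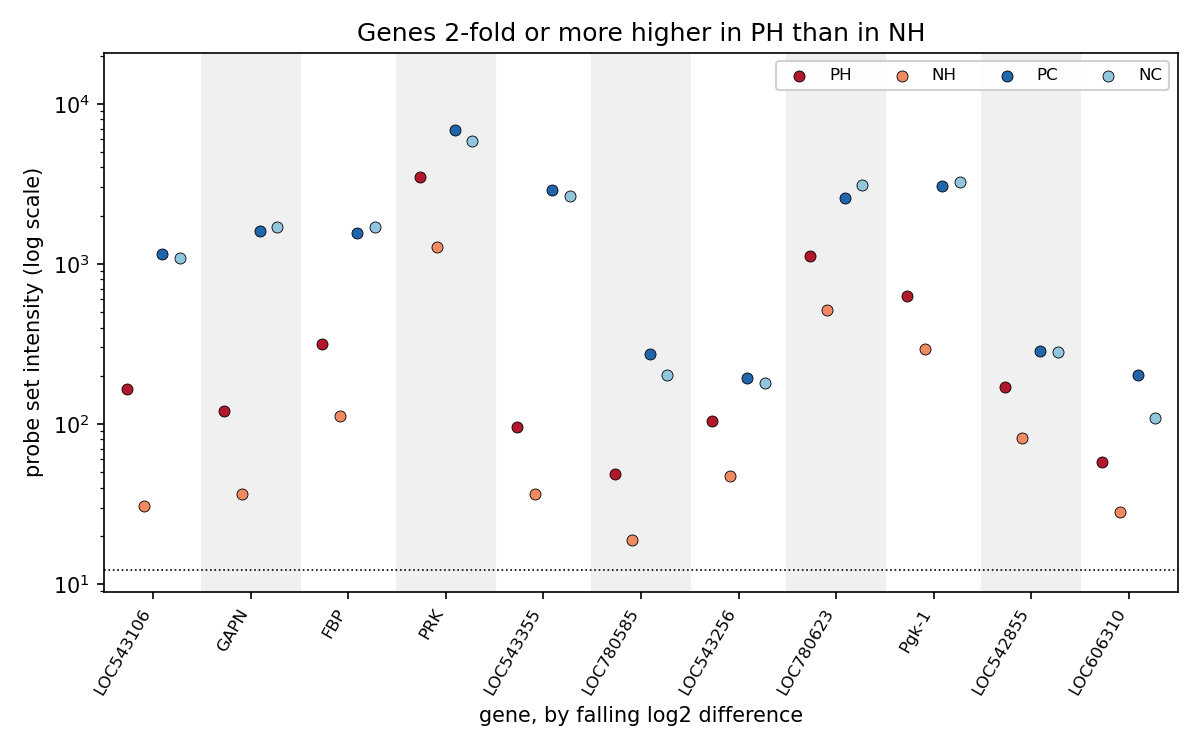
Intensity on a log scale on PH, NH, PC and NC for the 11 genes with a symbol that were 2-fold or more higher in PH than in NH; the dotted line is the floor of 12.3. In each gene PH lies above NH and below both PC and NC.

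All 11 genes higher in PH were brighter on both PC and NC than on PH. Their median intensities were 166 on PH and 47.2 on NH, against 1557 on PC and 1690.2 on NC. Over the array, PC and NC were both brighter than PH at 300 of the 715 higher probe sets and both dimmer at 381. Each of the 11 genes was read by its brightest probe set over the 4 arrays, PC and NC included. The 715 were not chosen in that way, so the counts do not compare like with like. These orders describe levels on 4 arrays and have no test. PH enters every one of them and, with NH, the choice of the genes and probe sets. PC minus NC for the 11 genes ran from -0.27 to 0.90, the highest being LOC606310.

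Methyl group turnover included 2 of the genes lower in PH. SAHH, S-adenosylhomocysteine hydrolase, clears the product that otherwise inhibits methyltransferases. It read 1012 on PH and 2267 on NH, against 4300.1 on PC and 5532 on NC, and was 2.24-fold lower in PH. Its second probe set, at 407 on PH and 1088 on NH, was 2.67-fold lower. COMT1, caffeic acid O-methyltransferase of lignin synthesis, read 209 on PH and 491 on NH, against 881 on PC and 1208 on NC, and was 2.35-fold lower. PIMT, which repairs damaged aspartate residues in proteins, read 128 on PH and 114 on NH, a log2 difference of 0.17. APRT, adenine phosphoribosyltransferase, which salvages adenine, read 1199.6 on PH and 1355 on NH, a difference of -0.18. PEAMT1, phosphoethanolamine N-methyltransferase, was below the floor on PH and NH, with 453 on PC and 526 on NC. Of the 4 measured genes 0 were 2-fold higher and 2 lower, with a median of -0.67, where 5.24% of all 572 genes were lower and their median was -0.06. The group's median was -0.18 with the floor at the 25th percentile and -0.004 without probe sets that carry a suffix, a setting that leaves out both SAHH and COMT1. For PC minus NC, the 5 genes of the list had 0 past 2-fold and a median of -0.21, with COMT1 at -0.45 and SAHH at -0.36.

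Of the 15 grain markers, avnla and Serpin-Z2A were more than 2-fold lower in PH. avnla, an avenin-like storage protein gene, read 72.9 on PH and 659 on NH, against 9.50 on PC and 11.2 on NC. It was 9.04-fold lower in PH. Its second probe set read 24.7 on PH and 334 on NH, a log2 difference of -3.76. Serpin-Z2A, a serine protease inhibitor of the grain, read 15.1 on PH and 49.9 on NH, against 4.09 on PC and 5.57 on NC, 3.30-fold lower. avnlb, the other avenin-like gene, read 518 on PH and 571 on NH, against 394 on PC and 342 on NC. The 15 grain markers summed to 702 on PH and 1392 on NH, against 492 on PC and 458 on NC. Most of the gap between PH and NH came from avnla alone, at 72.9 on PH and 659 on NH. Of the 15 markers 7 were measured. All 7 lay below 0, 2 of them past 2-fold, with a median of -0.26. Over all 572 measured genes 318 lay below 0 and 250 above, and 5.24% were 2-fold lower. The markers' median was -0.16 with a pseudocount and -0.14 without probe sets that carry a suffix. The other 8, among them the gliadin genes Gli-3, Gli-D2-1, Gli-1 and Gli-B2-11, were below the floor on all 4 arrays. LMW-GS, a low molecular weight glutenin, read 14.7 on PH and 18.9 on NH. The gliadin gene Gli-8, the thionin gene THI1.1 and the amylase inhibitor gene WMAI-1 were as dim, between 14.4 and 18.8 on PH and between 16.5 and 22.5 on NH. Of the anther markers raftin1a was below the floor, and raftin1b read 16.8 on PH and 15.1 on NH. The part of grain tissue in these values was not tested.

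Tubulins, which build microtubules, and profilin did not reach 2-fold. tubb3, a beta-tubulin, read 164 on PH and 309 on NH, against 774 on PC and 793 on NC, a log2 difference of -0.92. TUBA, an alpha-tubulin, read 2151 on PH and 2438 on NH, and the actin-binding profilin PRO1 3865 on PH and 4289 on NH. Of the beta-tubulins Tubb4 had -0.47, tubb1 -0.38, Tubb5 -0.37 and tubb2 0.04. The other probe sets of Tubb5 had -0.14, -0.11 and 0.14. Of the 7 genes 6 lay below 0, as did 318 of all 572. Their median was -0.37, and -0.03 for the same genes in PC minus NC. It was -0.13 without probe sets that carry a suffix.

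Of 6 genes of redox balance and detoxification, 5 lay above 0 and 0 passed 2-fold by their brightest probe sets. Of all 572 measured genes, 250 lay above 0. CAT1, a catalase, read 3527 on PH and 2981 on NH, against 6698 on PC and 7182 on NC, a log2 difference of 0.24. Prx1, a peroxiredoxin, read 424 on PH and 352 on NH, against 1657 on PC and 1876 on NC. Its difference was 0.27, and 0.94, 0.52 and 0.25 on its other probe sets. lgul, a glyoxalase, which clears methylglyoxal, was read differently by its probe sets. The brighter read 106 on PH and 94.9 on NH, against 452 on PC and 311 on NC, a difference of 0.16. The other read 44.6 on PH and 19.4 on NH, against 586 on PC and 578 on NC, and was 2.30-fold higher in PH. GSTZ1, a glutathione transferase, had 0.29 and PER1, listed as a peroxidase, -0.06. PCS1, phytochelatin synthase, which makes metal-binding peptides, had the highest difference of the group, 0.40, at 71.2 on PH and 54.0 on NH. By their brightest probe sets the genes ran from -0.06 to 0.40, inside the central 98% of PC minus NC. Only 8.61% of all PH minus NH values lay outside that range. The Prx1 probe set at 0.94 and the other lgul probe set lay outside it.

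Of the protein folding and stress genes with names here, 4 of 7 were measured, and 0 passed 2-fold. FKBP70, a peptidyl-prolyl isomerase, read 1577 on PH and 2109 on NH, against 959 on PC and 1119.7 on NC, a log2 difference of -0.42. Rab15, the late embryogenesis gene LEA1 and EMH2 were dim, between 13.3 and 27.2 on PH. A difference could not be seen in COR410, EM or hsp16.9A, which encodes a small heat shock protein: none of the 4 arrays read them above the floor.

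Defence and transport genes went in both directions. XIP-I, a xylanase inhibitor, read 6323 on PH and 9759 on NH, against 916 on PC and 1286 on NC, a difference of -0.63 with heat and -0.49 without. TaGlu1a, a beta-glucosidase, was 0.43 with heat and -1.33 without, where it passed 2-fold. It lay near the floor at 20.4 on PH and 15.1 on NH. PR5, a thaumatin-like protein, was below the floor on PH and NH, with 146 on PC and 196 on NC. LTP3, a lipid transfer protein, read 1229 on PH and 760.3 on NH, against 1888 on PC and 2195 on NC, a difference of 0.69. The proton pump gene ha1 read 3456 on PH and 3091 on NH. The ion channel gene TPC1 had 0.31 and the cell wall enzyme gene XTH -0.23. Of 2 measured defence and 4 measured transport and cell wall genes, 0 passed 2-fold.

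Translation genes lay close to 0. TEF1, an elongation factor, read 4069.6 on PH and 4015 on NH, and eIF4E, which binds the messenger cap, 644 on PH and 738 on NH. The 6 measured translation genes ran from -0.20 for eIF4E to 0.33 for the ribosomal protein gene RPL9, with eIF-2-beta at -0.09, Eif4B at -0.02 and NCBP at -0.15. The 5 measured histone and high mobility group genes had a median of 0.08, from wcH2B-6 at -0.57 to Hmgb3 at 0.36, and -0.08 once probe sets with an x, s or a suffix were left out. wcH2B-8, a histone H2B, read 55.9 on PH and 59.8 on NH, against 548 on PC and 511 on NC. The other probe set of wcH2B-6 had the opposite sign, 0.21. The general transcription factor TBP1 read 242 on PH and 241 on NH. WZF1, a zinc finger protein, read 15.4 on PH and 22.7 on NH, against 143 on PC and 86.25 on NC, a difference of -0.56. UBC1, a ubiquitin-conjugating enzyme, read 2233 on PH and 2308 on NH. The 3 gibberellin oxidase genes of the list were below the floor on PH and NH. In these groups 0 genes passed 2-fold.

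**Figure D4:**
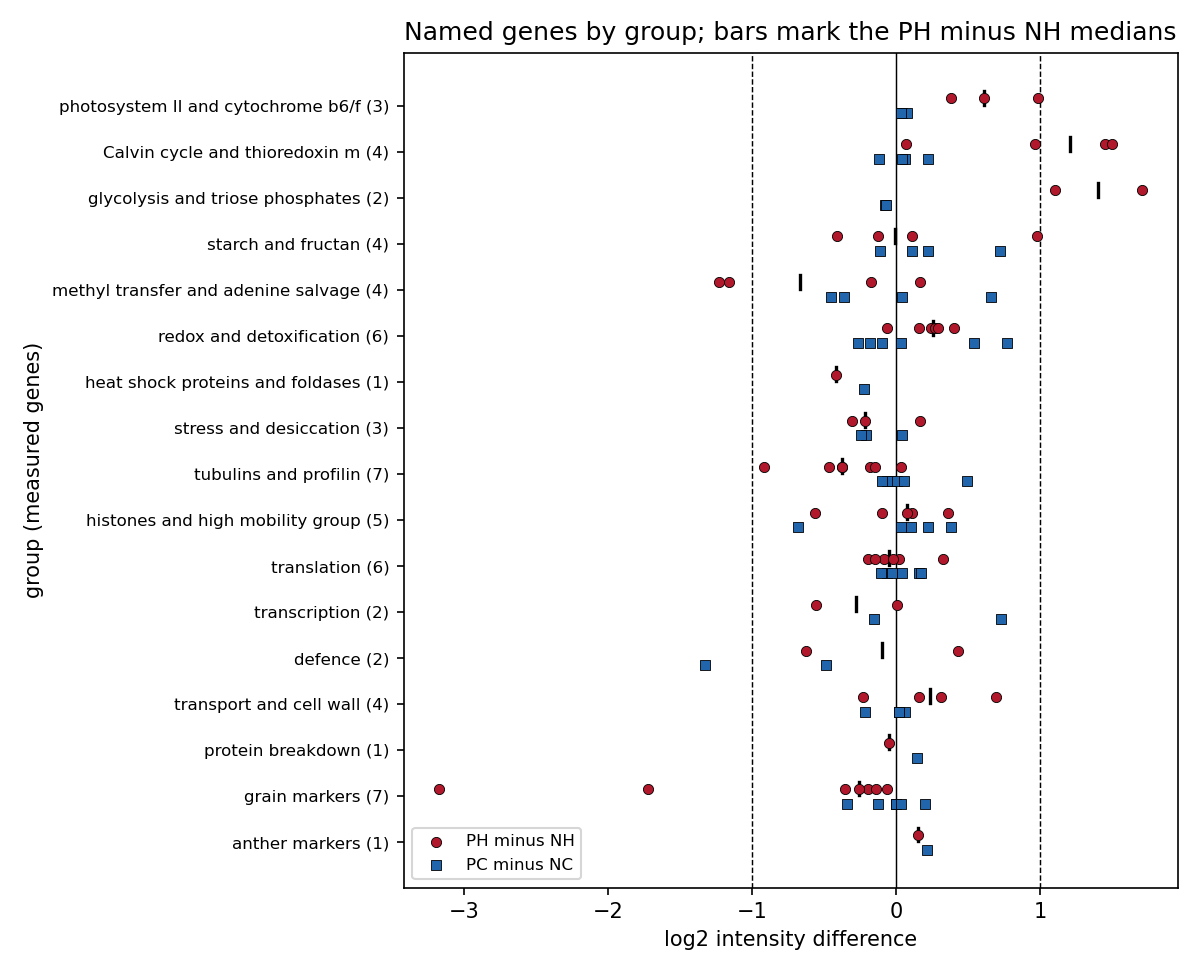
Log2 differences of the measured genes of each group, PH minus NH as red circles and PC minus NC as blue squares, with the number of genes in brackets; bars mark the PH minus NH medians and dashed lines 2-fold. Calvin cycle and triose phosphate genes reach 1.50 and 1.71, and the grain marker avnla lies at -3.18.

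Of the 30 genes lower in PH, 26 have a locus symbol alone. LOC542826 read 7.71 on PH and 139 on NH, against 119 on PC and 169 on NC. With PH below the floor, it was at least 11.4-fold lower, and PH was the lowest of the 4 arrays by a wide margin. LOC100125738 read 132 on PH and 682 on NH, against 10.1 on PC and 15.6 on NC, and was 5.17-fold lower. LOC543416 read 269 on PH and 872 on NH, against 165 on PC and 185 on NC, and was 3.24-fold lower. LOC542781 read 14.6 on PH and 45.8 on NH, against 43.2 on PC and 54.2 on NC, which again left PH as the lowest array. LOC543368 was among the brighter ones, at 946 on PH and 2227 on NH, against 443 on PC and 473 on NC. For 16 of the 30, PC and NC were both dimmer than PH, and for 13 both were brighter. Over all 472 lower probe sets, both were dimmer at 262 and both brighter at 180. The 472 were not chosen by brightness over the 4 arrays as the 30 genes were, so these counts do not compare like with like. PH enters both the choice of the genes and these orders, which have no test.

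Most of the remaining genes with a locus symbol alone were either dimmer than PH or brighter than NH on both unheated arrays. LOC543421 read 258 on PH and 696 on NH, against 114 on PC and 172 on NC, and LOC543404 read 109 on PH and 253 on NH, against 37.6 on PC and 42.3 on NC. LOC543477, at 56.8 on PH and 134 on NH, and LOC606366, at 361 on PH and 806 on NH, were likewise dimmer on both unheated arrays than on PH. Brighter on both unheated arrays than on NH were LOC543422, at 97.4 on PH and 290.3 on NH, and LOC543132, at 149 on PH and 328 on NH. LOC100049032, at 24.3 on PH and 57.0 on NH, and LOC778392, at 301 on PH and 727 on NH, belonged with these. LOC542864 was dim on all arrays, at 26.99 on PH and 59.0 on NH, and LOC606326 read 92.3 on PH and 204 on NH. These 10 genes were between 2.19-fold and 2.98-fold lower in PH.

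Some of these genes were also lower in progeny of primed plants without heat. LOC543150 read 408 on PH and 1853 on NH, against 50.1 on PC and 199.7 on NC. LOC543201 read 285 on PH and 1269 on NH, against 30.0 on PC and 185 on NC. LOC543197 read 2249 on PH and 4584 on NH, against 252 on PC and 1404 on NC. These genes, with LOC542799 and LOC606352, are the 5 of the 30 past 2-fold downward in both contrasts. All 5 values come from probe sets that may match several transcripts. Of all 472 probe sets lower in PH, 27 were also 2-fold lower in PC than in NC. Of genes with a symbol, 1.83% were 2-fold lower without heat. A second probe set of LOC543150 shares a transcript cluster with that of LOC543197 and read 21.8 on PH and 24.8 on NH, so these locus names may not be separable here.

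LOC543090 went the other way between temperatures. It read 34.7 on PH and 116 on NH, against 391 on PC and 159 on NC, 3.34-fold lower with heat and 1.30 higher on the log2 scale without. LOC100037560 read 115.9 on PH and 269.6 on NH, against 858 on PC and 489 on NC, with differences of -1.22 with heat and 0.81 without. LOC606308 read 894 on PH and 1906 on NH, against 134 on PC and 76.5 on NC, with differences of -1.09 and 0.81.

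**Figure D5:**
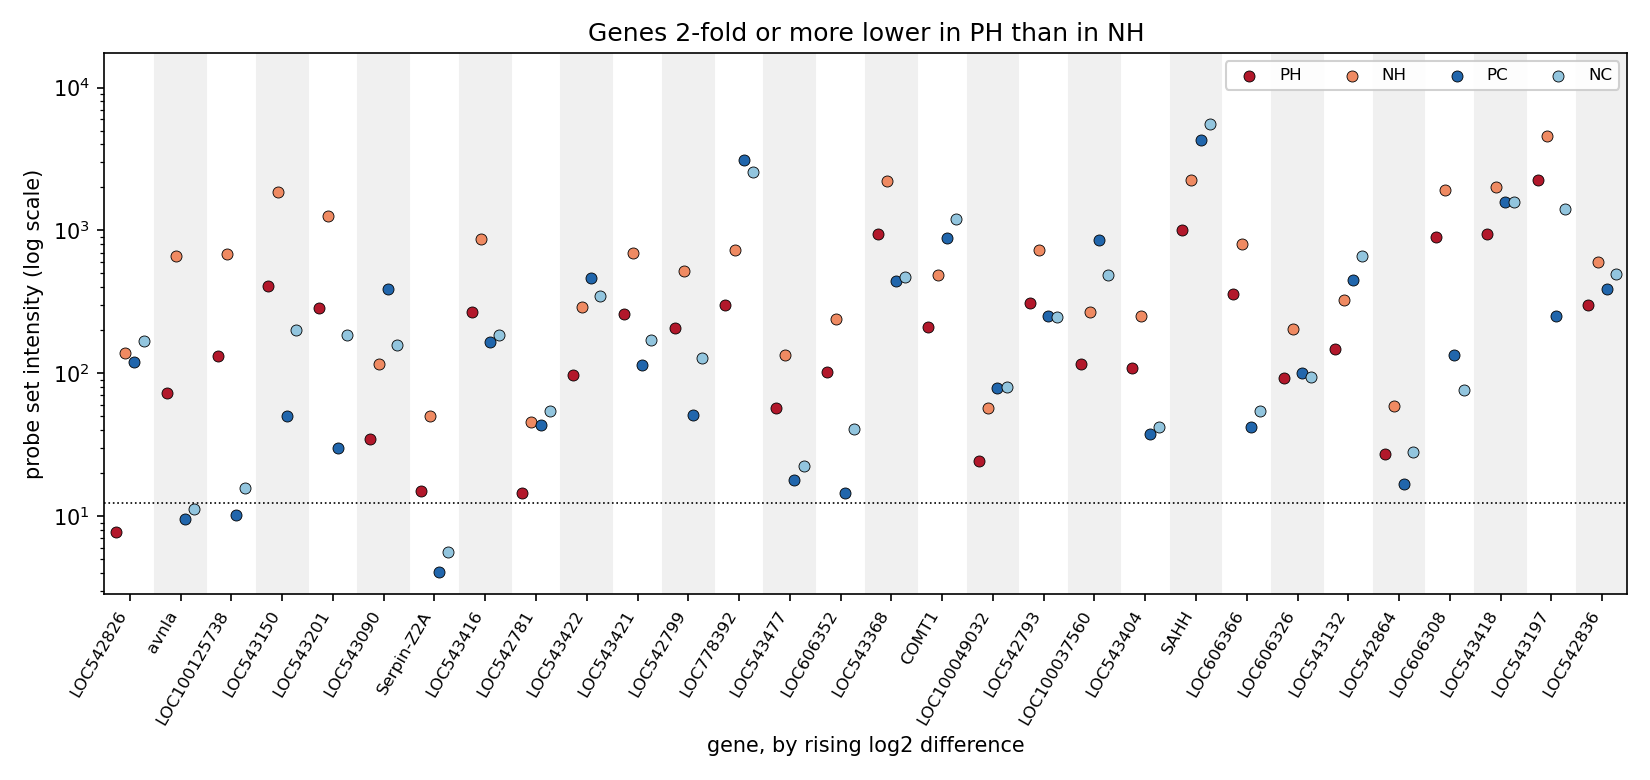
Intensity on a log scale on PH, NH, PC and NC for the 30 genes with a symbol that were 2-fold or more lower in PH than in NH; the dotted line is the floor of 12.3. PC and NC lie below PH for some genes, such as avnla, and above NH for others, such as SAHH.

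Probe sets of the same gene gave a limited check on the measurement, and none on the plants, since they read the same RNA. Genes past 2-fold were picked by their brightest probe set, so agreement among probe sets was partly set by that choice. Some probe sets of a gene also share a transcript cluster, as in LOC542793 and LOC606366. Of the 41 genes past 2-fold, 14 had at least 2 measured probe sets. In 12 of the 14, all probe sets had the same sign, and in 8 all passed 2-fold the same way. LOC542793 was lower on 3 probe sets, by 1.22, 1.26 and 1.44 on the log2 scale in size. LOC606366 was lower on 3 as well, by 1.07, 1.11 and 1.16. The exceptions were LOC543418 and LOC778392. LOC543418 was 2-fold lower in PH by its brighter probe set, at 949 on PH and 2009 on NH, and 2-fold higher by the other, at 227 on PH and 107 on NH. LOC778392 had log2 differences of -1.27, -0.79 and 0.35 from the brightest of its probe sets to the dimmest. Over all 189 genes with at least 2 measured probe sets, 66.7% had 1 sign throughout.

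Genes nearest the threshold show how much rests on it. LOC542836, at 301 on PH and 604 on NH, was 2.01-fold lower, and LOC606310, at 57.9 on PH and 28.1 on NH, was 2.06-fold higher. Just short of it stood petC, AGA.1 and Trx-M in the higher direction, at 0.98, 0.98 and 0.96. LOC543498, at 25.5 on PH and 50.3 on NH, had -0.98, and LOC542835, at 182 on PH and 346 on NH, had -0.93.

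Most probe sets have no symbol. Of those above the floor on both arrays, Ta.447.2.S1_a_at was the highest in PH, at 299 on PH and 23.6 on NH, against 3681 on PC and 3574 on NC, 12.7-fold. Ta.447.1.S1_x_at, of the same transcript cluster, came next, at 168 on PH and 26.4 on NH, 6.36-fold. In the other direction, Ta.5557.1.S1_x_at read 20.4 on PH and 242 on NH, against 15.6 on PC and 11.3 on NC, 11.9-fold lower. Ta.2657.1.S1_s_at read 29.0 on PH and 338 on NH, against 1214 on PC and 986 on NC, 11.7-fold lower. Probe sets with the suffix for cross-matching sequences, x, were lower more often (2.37%) than higher (1.98%) in PH, and those with no suffix were lower at 1.31% and higher at 2.34%. Of the 30 lower genes, 15 were read by a probe set with a suffix for several transcripts, against 2 of the 11 higher.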

How the data were processed

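Total RNA, 6 µg per sample, was turned into labelled cRNA for an Affymetrix wheat array, per the labels' protocols, which describe biotin while another field says Cy3. The authors deposited linear probe set intensity; MAS5 is named per the submitters' processing notes. For its version, scaling and detection calls, the sources used here give nothing. Array medians were 12.1 (PH), 12.1 (NH), 12.3 (PC) and 12.7 (NC), and 30265 to 30938 probe sets per array exceeded the floor.

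Of 61290 probe sets, 111 AFFX and 64 RPTR controls were left out. Values below the pooled median of the other 61115 were raised to it before log2. Each of 771 genes with 1 symbol in the platform annotation was read by the probe set with the highest mean log2 over the 4 arrays. Functional names came from the gene table of IWGSC CS RefSeq v2.1, where 770 matched. 85 genes were put in 18 groups by name. Genes that could be named were all those past 2-fold, the measured genes of the groups, the 5 nearest the threshold on each side, and the 2 highest and 2 lowest probe sets without a symbol. Genes and groups were chosen with earlier results of these data known. No sequences were available to print. Alternatives were median scaling, quantile normalization, loess (fraction 0.3), floors of 4.20 (25th percentile) and 53.6 (75th percentile), a pseudocount, 3-fold, probe sets without the suffixes x, s and a, and the mean over a gene's probe sets. Counting was also tested on simulated data with known folds. Python 3.11.15 was used with pandas 2.3.3, numpy 2.4.6, matplotlib 3.10.9 and statsmodels 0.14.6.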

Additional observations from a re-analysis of the deposited data

Results flagged for a closer look

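The poly-A controls, which no comparison uses, had a median PH over NH ratio of 0.557, whereas their PC over NC ratio was 1.30. The lowest was 0.458, for a Lys probe set.

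Of the 715 probe sets 2-fold higher in PH than NH, 3 were 2-fold lower in PC than NC and 7 were 2-fold higher. Of the 472 that were 2-fold lower in PH, 8 were 2-fold higher in PC and 27 were 2-fold lower. Over all probe sets measured on PC or NC, 0.342% were 2-fold higher in PC and 0.420% lower. These differences between temperatures were not tested. Among the probe sets with opposite differences, the gene with a symbol was LOC543090, with a log2 difference of -1.74 with heat and 1.30 without. The widest, picked after its values were seen, was the probe set Ta.11519.1.A1_at, at 129.9 on PH and 11.01 on NH, against 7.92 on PC and 449 on NC, and a second probe set of its cluster read 137 on PH and 9.38 on NH, against 15.9 on PC and 470.1 on NC.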

How the results depend on the processing

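No paired analysis was possible because each group holds 1 array. Under median scaling and a floor at the 25th percentile all 41 genes kept their direction and 2-fold side, and under quantile normalization and loess 39 did. The counts of probe sets higher and lower in PH were 330 and 268 with the floor at the 75th percentile, 379 and 314 with a pseudocount, and 100 and 133 at 3-fold; without probe set types for several transcripts, 289 were lower. Genes with a symbol higher in PH numbered 7 with the high floor, 7 with a pseudocount and 2 at 3-fold, and those lower numbered 9 at 3-fold and 17 without those types, where 27 of the 41 genes had a value and 3 lost the call (LOC543150 -0.19, LOC778392 -0.79, LOC606352 -0.64). With the high floor, 38 of the 41 genes had a value and 33 kept the call. Serpin-Z2A, LOC780585 and LOC542781 had none, as they lay below that floor on PH and NH. The call was also lost for LOC543355 (0.84), LOC543256 (0.97), LOC606310 (0.11), LOC100049032 (-0.09) and LOC542864 (-0.14). The grain marker median went to -1.66, over avnla and avnlb alone. The mean over all probe sets gave LOC543418 0.0019 in place of -1.08, and left LOC100037560 (-0.68) and LOC778392 (-0.57) short of 2-fold. A pseudocount did so for LOC780585 (0.96), LOC543256 (0.98), LOC542855 (0.97), LOC606310 (0.80), LOC100049032 (-0.92), LOC542864 (-0.86) and LOC542836 (-0.98), quantile normalization for LOC606310 (0.98) and LOC542836 (-0.99), and loess for LOC543197 (-0.98) and LOC542836 (-0.95). Trx-M passed 2-fold under quantile normalization (1.01) and loess (1.02), as did petC (1.03) and AGA.1 (1.01) under loess. Of the genes past 2-fold, 26.8% were higher in PH. The share was 39.3% without types for several transcripts, 34.8% with a floor at the 25th percentile and 33.3% under loess. It was 21.2% with the high floor, 20.6% with a pseudocount and 18.2% at 3-fold. The medians of starch and fructan, histone, transcription and protein breakdown genes, each near 0 or over few genes, changed sign under at least 1 alternative. The cause of these shifts was not tested. Dim probe sets limit what can be seen: 51.5% exceeded the floor on PH or NH.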

Other observations

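Outside the groups, 10 measured genes carry a functional name, and 0 of them passed 2-fold, with log2 differences from -0.47 to 0.32; they were looked at after the other values were seen. DMAS1, deoxymugineic acid synthase, which makes the iron-binding phytosiderophores of grasses, had the lowest, at 365 on PH and 504 on NH, against 205 on PC and 234 on NC. TCTP, the translationally controlled tumour protein, read 6111 on PH and 6081 on NH, against 4205 on PC and 4043 on NC. AdSS, adenylosuccinate synthetase of purine synthesis, read 392 on PH and 373 on NH, against 282 on PC and 251 on NC. The 500 measured genes with a locus symbol alone had 7 higher and 26 lower in PH, with a median of -0.07.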
